A study of Mus musculus with 12 samples.

Results

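Dbp (ENSMUSG00000059824, GRCm38 chromosome 7, 45705088 to 45710203), which encodes a clock-driven transcription factor, stood at very different levels in libraries of the same TCDD dose, and the 12 ileal libraries were therefore compared by clock state. The libraries were selected on Dbp itself: 6 of the 12 had at least 10 CPM (counts of the gene scaled in the usual way to all counts assigned to genes) and are called Dbp-high, and the other 6 had less and are called Dbp-low. RNA was sequenced from scrapings of proximal ileal epithelium of male C57BL/6 mice given sesame oil vehicle or 3, 10 or 30 µg/kg TCDD, a dioxin that activates the aryl hydrocarbon receptor (AhR). Mice received 7 doses by gavage at intervals of 4 days, the first at an age of 28 days, tissue was taken at 56 days, and 3 libraries were made per dose. Vehicle gave 2 Dbp-high libraries (replicates 2 and 3) and 30 µg/kg gave 2 (replicates 1 and 2), while 3 and 10 µg/kg each gave 1 (replicate 1). The rest were Dbp-low, so every dose held libraries on both sides. The split was drawn from the data and is not a treatment of the study. The labels give no harvest time for single animals, and the study's methods place all harvests in the first hours of the light phase.

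The circadian clock is a transcriptional feedback loop that runs in most cells. ARNTL (BMAL1) and CLOCK activate the Per and Cry genes through E-boxes, and PER and CRY proteins then repress that activation. In further arms, DBP, TEF and HLF activate and NFIL3 represses through D-boxes, while REV-ERB proteins (Nr1d1, Nr1d2) repress and RORA activates through ROR elements. Arntl and Dbp are known to peak at nearly opposite times of day in peripheral tissues. In the intestine, transport and digestion genes are known to follow daily rhythms that also respond to the time of feeding.

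The selecting values of Dbp are a description. The vehicle libraries had 1.06, 117 and 83.6 CPM in replicates 1 to 3. At 3 µg/kg the values were 83.1, 3.62 and 1.75 CPM, and at 10 µg/kg they were 65.1, 1.17 and 1.02 CPM. At 30 µg/kg the values were 45.5, 27.9 and 2.79 CPM. The member just inside the limit was thus replicate 2 of 30 µg/kg at 27.9 CPM, and the library just outside was replicate 2 of 3 µg/kg at 3.62 CPM. No library lay between them. CPM values below are scaled with TMM factors (trimmed mean of M values), so they differ slightly from these.

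Total gene counts per library were between 11695887 and 22180274. The share of mitochondrial counts was 2.86 to 3.87% in Dbp-high and 2.90 to 3.91% in Dbp-low libraries. Of 3 read indexes, each used once per dose, the first occurred in 3 Dbp-high libraries and 1 Dbp-low library, the second in 2 of each, and the third in 1 Dbp-high library and 3 Dbp-low libraries. All 11 enterocyte markers examined, such as Vil1 and Fabp2, were detected, with a sum of 31043 to 38558 CPM in Dbp-high and 26138 to 30742 CPM in Dbp-low libraries. Fgf15 and Fabp6, genes known from the distal ileum, were low on average. Fgf15 had a mean of 0.375 CPM (SD 0.852) in Dbp-high and 0.555 CPM (SD 0.851) in Dbp-low libraries. Fabp6 had 6.46 CPM (SD 15.6) and 9.32 CPM (SD 14.5). Each SD was larger than its mean, so the levels differed widely between single libraries. In such bulk RNA, fewer cells of a type and less RNA per cell cannot be told apart.

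Promoter sequences of some genes that moved with the split hold the letters of elements known from the clock. Windows of 300 bases, from 250 before to 50 after each RefSeq start (GRCm38.p6), were searched on both strands for the E-box CACGTG, the D-box TTANGTAA, the ROR element TAGGTCA and a heat shock element GAANNTTC. The lines below give the element in capitals with 12 bases on each side, read 5′ to 3′ on the gene's strand. The D-box of Coq10b and the ROR element of Bco1 match on the opposite strand and therefore appear as reverse complements.
Ciart E-box, chr3:95882327-95882356, minus strand: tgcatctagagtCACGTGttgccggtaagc
Tef E-box, chr15:81802534-81802563, plus strand: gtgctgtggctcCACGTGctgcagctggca
Per3 D-box, chr4:151044851-151044882, minus strand: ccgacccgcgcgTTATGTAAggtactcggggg
Coq10b D-box, chr1:55052596-55052627, plus strand: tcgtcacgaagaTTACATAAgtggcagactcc
Coq10b E-box, chr1:55052680-55052709, plus strand: ggcggcactggaCACGTGcgtcagcctagc
Klf15 E-box, chr6:90462392-90462421, plus strand: tagaacccgtctCACGTGcgcatcggagga
Slc5a1 E-box, chr5:33104064-33104093, plus strand: ccttttctgcctCACGTGggactccgtggc
Slc4a7 D-box, chr14:14718681-14718712, plus strand: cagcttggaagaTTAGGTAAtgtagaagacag
Bco1 ROR element, chr8:117095804-117095834, plus strand: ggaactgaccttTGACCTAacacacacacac
Slc9a3 E-box, chr13:74121314-74121343, plus strand: actgtttgcgttCACGTGtgcgcagcgggg
The first 3 genes belong to the clock loop. Those from Coq10b to Bco1 were higher in Dbp-high libraries and Slc9a3 was lower, as described below, so the same E-box letters stand in genes of both directions.

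Outside the clock loop, 216 called higher and 152 called lower genes had a promoter window, as did 10894 of all genes tested. The E-box was found in 13.9%, 12.5% and 11.2% of them. Shares for the D-box were 2.78%, 2.63% and 1.89% in the same order. For the ROR element they were 1.85%, 3.95% and 2.34%, and for the heat shock element 6.02%, 6.58% and 7.03%. All shares of the called genes outside the clock loop thus lay within a few percentage points of those of all genes tested. Clock loop genes past the same thresholds were few. Of 9 higher ones with a window, 3 held an E-box (Ciart, Per1 and Tef), 1 a D-box and 0 a ROR element. Of 3 lower ones, 2 held a ROR element (Arntl and Nfil3), and 0 an E-box or D-box. A match of letters is a description and does not mark a site in use.

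Genes of the clock loop separated the libraries far more widely than other genes, which follows in part from selecting on one of them and is given without a test. Of 23 clock loop genes, 12 were higher in every Dbp-high library than in every Dbp-low library and 3 were lower in every one, against 2.63% and 2.09% of all genes tested. The groups overlapped for the other 8. Under the thresholds used for other genes, 11 clock loop genes were higher and 3 lower.

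Among the D-box factors, Hlf had 22.2, 31.4 and 38.3 CPM (lowest, median, highest) in Dbp-high and 0.612, 1.85 and 3.39 CPM in Dbp-low libraries, a log2 difference of 3.91. Tef, whose E-box is printed above, had 99.7, 143 and 160 CPM against 13.0, 19.1 and 30.5 CPM. Nfil3, the repressor at the same elements, ran the other way, with 1.65, 2.58 and 4.35 CPM against 11.5, 16.0 and 25.4 CPM. Tef differed by 2.80 on the log2 scale and Nfil3 by -2.72, while the difference of Dbp itself, 5.28, was set by the rule. Hlf and Tef were thus high where the repressor was low, with no overlap between the groups.

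In the positive arm, Arntl had 5.50, 6.80 and 8.70 CPM in Dbp-high and 42.2, 47.7 and 64.4 CPM in Dbp-low libraries, a log2 difference of -2.96. Npas2, a paralogue of Clock, had 38.2, 42.8 and 70.0 CPM against 81.5, 109 and 120 CPM (-1.24). Clock differed little, with medians of 114 and 148 CPM, overlapping groups and a log2 difference of -0.19. Thus 2 activator genes of the loop were low in Dbp-high libraries, and the level of their partner Clock varied much less.

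In the negative arm, Per3 had 58.5, 83.9 and 110 CPM against 4.10, 5.87 and 7.82 CPM, a log2 difference of 3.80. Per2 followed with 97.7, 113 and 126 CPM against 11.8, 15.5 and 26.7 CPM (2.68), and Per1 with a difference of 1.23. Ciart, a repressor of ARNTL and CLOCK, differed by 4.11, between medians of 5.37 and 0.322 CPM. Cry2 differed by 1.07 without overlap, and Cry1 by -0.18 with overlap. The Per genes thus stood in a graded order, and the Cry genes did not move together.

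Of the ROR-element arm, Nr1d2 had 67.9, 130 and 139 CPM against 19.1, 29.5 and 34.1 CPM, a log2 difference of 2.1. Nr1d1 overlapped between the groups, with 67.2, 121 and 187 CPM against 43.0, 64.3 and 115 CPM, and its difference was 0.80. Inside 30 µg/kg, Nr1d1 was lower in the Dbp-high libraries, by -0.40, and in the other 3 doses it was higher. Rora differed by 0.02, and its groups overlapped. Bhlhe40, another repressor at E-boxes, differed by 0.78. Csnk1d and Csnk1e, kinases that act on PER proteins, differed by 0.11 and 0.09. The low-count genes Bhlhe41 and Fbxl21 differed by 1.06 and -0.57, and both overlapped. Clock loop genes that overlap genes on the other strand include Dbp, Nr1d1, Tef, Arntl, Npas2, Ciart, Cry2, Bhlhe40, Bhlhe41, Rora, Csnk1d and Csnk1e. Many genes named below do so too, among them Slc34a2, Slc5a1, Slc2a2, Abcb1a, Cubn, Wee1 and Nr1i3. Since the strand setting of the counting is not given in the sources used here, reads from such a pair cannot be told apart.

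**Figure D1:**
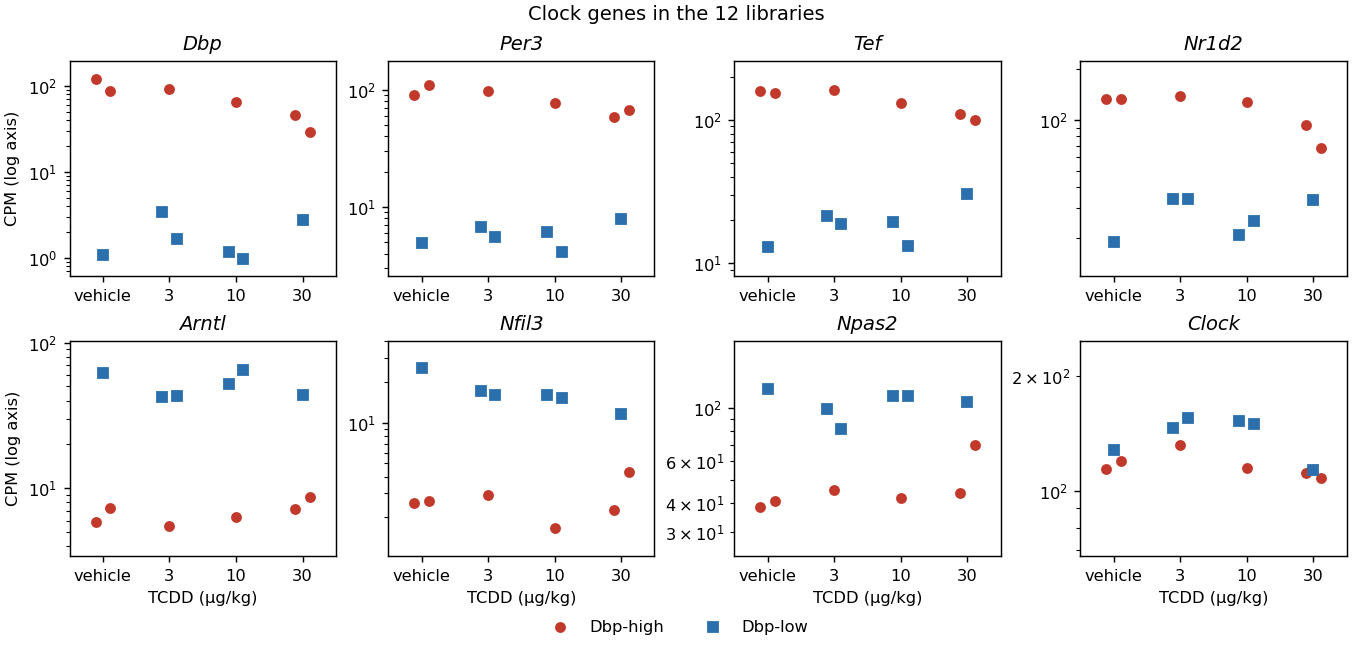
CPM (log axis) of 8 clock loop genes in each of the 12 libraries, by TCDD dose in µg/kg, with Dbp-high libraries as red circles and Dbp-low libraries as blue squares. Dbp, Per3, Tef and Nr1d2 are higher in all 6 Dbp-high libraries, Arntl, Nfil3 and Npas2 are lower in all 6, and Clock overlaps.

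The size of the separation differed between doses, and is given without a test. The selecting gene Dbp had within-dose log2 differences of 6.42 in vehicle and 5.19, 5.76 and 3.68 at the rising doses of TCDD. For Tef these differences were 3.58, 3.00, 3.02 and 1.78. Over the 13 clock loop genes other than Dbp past the thresholds, the median absolute difference was 2.79, 2.45, 2.78 and 1.78 in the same order. Over the 517 called genes outside the loop it was 0.94, 1.01, 0.85 and 0.67. The value at 30 µg/kg was thus the lowest in each of these series. Each of these differences rests on 3 libraries and on the libraries that set the limit. A test of whether the difference changed along dose is given further on.

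Genes outside the clock loop were then compared between the groups with dose as a covariate, in edgeR's quasi-likelihood test with Benjamini-Hochberg adjustment over all 15823 genes tested. Calls required an adjusted p under 0.05 together with a difference of at least 1.5-fold. In total 531 genes (3.36%) were called, 309 higher in Dbp-high libraries (1.95%) and 222 lower (1.4%). Outside the clock loop, 298 were higher and 219 lower. The difference had the same sign inside all 4 doses for 517 of the 531 called genes. These p-values measure association with the Dbp split among these 12 libraries, so anything that varied with Dbp between the libraries is included. The median log2 difference of all genes tested was -0.01. Without the fold condition, 1692 genes had an edgeR adjusted p under 0.05. An unadjusted p under 0.05 in edgeR was found for 3700 of the 15823 genes. Counts of unadjusted p in the lists below stand beside that share.

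**Figure D2:**
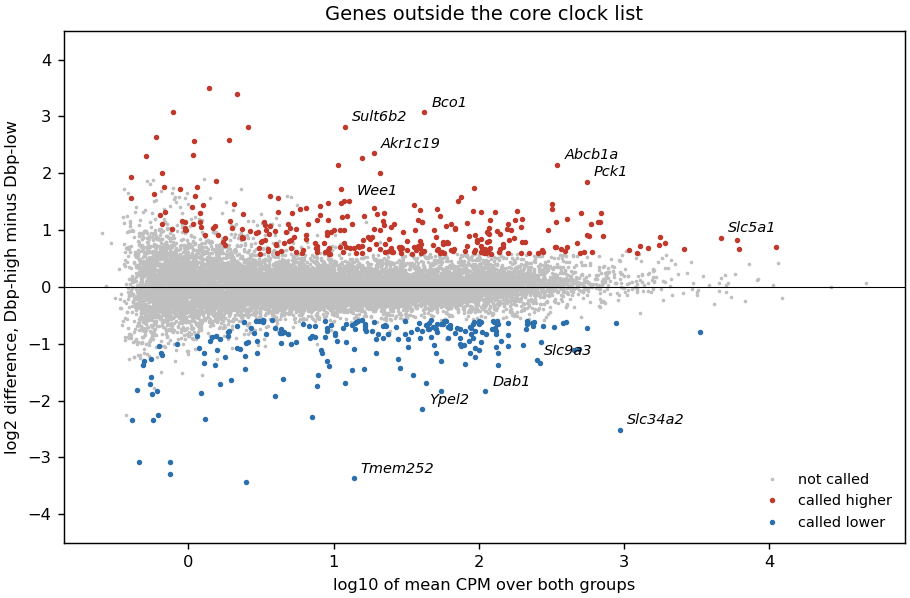
Log2 difference between Dbp-high and Dbp-low libraries against the log10 of the mean CPM for 15800 genes outside the clock loop, 1 point per gene. Called higher genes (red) include abundant transcripts such as Slc5a1, and called lower genes (blue) include the abundant Slc34a2 at -2.51.

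The 12 largest rises were taken from called protein-coding genes with a mean count of at least 50 that were separated inside all 4 doses, and Bco1 was the first of them. Dusp9, a phosphatase of MAP kinases below that count limit and named after its value was seen, differed by 3.4 (mean 3.96 against 0.394 CPM). Bco1 (ENSMUSG00000031845, chromosome 8, 117095854 to 117133720), which cleaves beta-carotene to retinal, had 15.3, 55.2 and 174 CPM (lowest, median, highest) in Dbp-high and 3.99, 4.96 and 18.8 CPM in Dbp-low libraries. Its log2 difference was 3.08 (SE 0.26; edgeR adjusted p 3.53e-06), and the groups overlapped only through replicate 3 of 30 µg/kg, the highest Dbp-low library. Sult6b2, a member of the sulfotransferase family, had 15.6, 20.4 and 29.2 CPM against 1.70, 2.72 and 4.11 CPM, 7.04-fold higher (edgeR adjusted p 9.48e-07). Hsd3b3, of the 3-beta-hydroxysteroid dehydrogenases, was 4.40-fold higher (edgeR adjusted p 4.28e-05). Akr1c19 and Akr1c14, aldo-keto reductases, were 5.11-fold and 3.29-fold higher, and Nat8f5, of the N-acetyltransferase 8 family, was 4.85-fold higher (edgeR adjusted p 4.11e-06, 5.60e-07 and 1.80e-07). All 5 genes named here after Bco1 were free of overlap between the groups. Akr1c and Nat8f members have close copies, and Nat8f5 overlaps Nat8f6, so their counts are uncertain.

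Abcb1a (ENSMUSG00000040584, chromosome 5, 8660077 to 8748575), which encodes the P-glycoprotein efflux pump, had 483, 573 and 639 CPM in Dbp-high and 110, 116 and 161 CPM in Dbp-low libraries. Its difference of 2.15 (SE 0.12; edgeR adjusted p 1.31e-07) was separated by a wide gap. Pck1, the gluconeogenic phosphoenolpyruvate carboxykinase, had 579, 797 and 1446 CPM against 141, 231 and 427 CPM, 3.62-fold higher (SE 0.25 on the log2 scale; edgeR adjusted p 0.000244). Within doses the log2 difference of Pck1 was 2.32, 2.65, 1.67 and 0.81 from vehicle to 30 µg/kg. Slc4a7, a sodium bicarbonate cotransporter whose D-box is printed above, was 2.99-fold higher (edgeR adjusted p 8.46e-08). Its groups overlapped across doses, with 47.5 to 163 CPM against 21.8 to 50.3 CPM, and their separation inside every dose was a condition of the choice. The printed D-box of Slc4a7 lies before a RefSeq start inside the gene, whose annotated start is base 14702279 of chromosome 14. A promoter window of Slc4a7 also held a ROR element. Foxq1, a forkhead transcription factor, was 4.00-fold higher, Tns4, a tensin of focal adhesions, 3.35-fold, and Nrg4, a ligand of the EGF family, 3.02-fold (edgeR adjusted p 9.25e-06, 5.81e-06 and 0.00338).

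Tmem252, a membrane protein gene, showed the largest of the named falls. It had 1.65, 1.93 and 8.17 CPM in Dbp-high and 15.0, 24.2 and 40.0 CPM in Dbp-low libraries, 10.3-fold lower (edgeR adjusted p 2.46e-07). Slc34a2 (ENSMUSG00000029188, chromosome 5, 53038081 to 53071664), the intestinal sodium phosphate cotransporter, had 183, 231 and 688 CPM against 1235, 1547 and 1859 CPM, a difference of -2.51 (SE 0.21; edgeR adjusted p 4.10e-06). Its highest Dbp-high values were the pair of 30 µg/kg libraries, at 501 and 688 CPM, and the groups did not overlap. Ypel2 had 11.6, 14.6 and 23.8 CPM against 51.7, 64.6 and 80.7 CPM, and was 4.45-fold lower. Dab1, an adaptor of reelin signalling, was 3.57-fold lower, Pnp2, a purine nucleoside phosphorylase, 3.56-fold, and Glipr2 4.87-fold. The edgeR adjusted p of these 4 genes was between 8.06e-09 and 9.68e-07, the lowest for Pnp2.

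Bok, a BCL-2 family member, was 3.33-fold lower, and its groups touched at replicate 2 of 30 µg/kg, a Dbp-high library at 7.28 CPM, and replicate 3 of 3 µg/kg at 7.27 CPM. St5 was 3.23-fold lower, and B3gnt7, which extends N-acetyllactosamine chains, 2.91-fold, both with separate groups. Slc15a2, a peptide transporter, was 2.92-fold lower. Sprr2a1 and Sprr2a3, small proline-rich proteins of the epithelium, were 3.76-fold and 3.21-fold lower and have near-identical copies, so their split is uncertain. The edgeR adjusted p of these 6 genes was between 2.46e-06 and 0.00121.

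**Figure D3:**
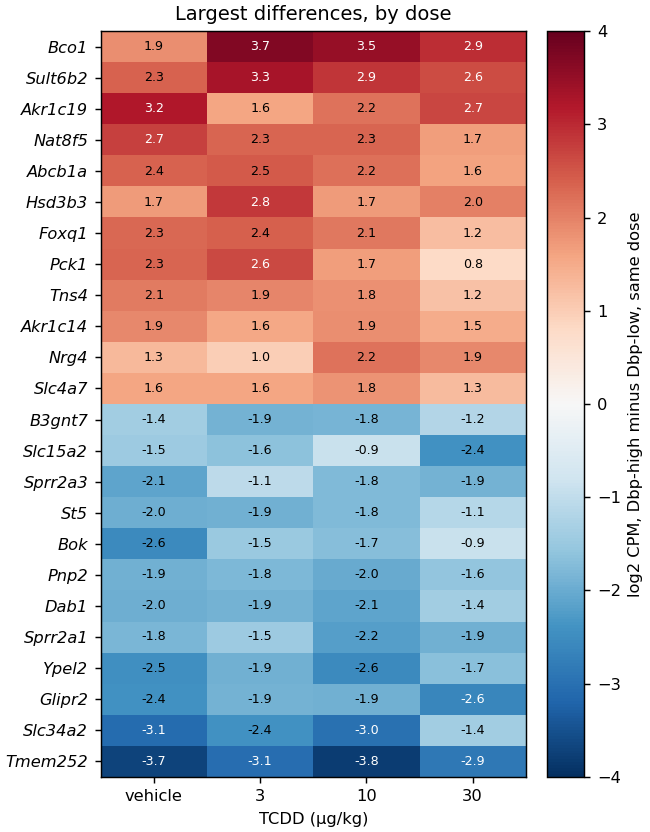
Difference of log2 CPM between Dbp-high and Dbp-low libraries inside each dose (columns, in µg/kg) for the 12 largest rises and 12 largest falls (rows), with the value printed in each cell. One sign per row was fixed by choosing genes separated inside all 4 doses, and Pck1 and Bok are examples with the smallest size at 30 µg/kg (0.81 and -0.90).

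Outputs of the clock known from many tissues were examined as a list. Of 22 genes tested, 10 were called higher and 1 lower, against 1.95% and 1.4% of all genes, with a median log2 difference of 0.50. Wee1, a kinase that holds back mitotic entry, had 16.7, 19.0 and 19.97 CPM in Dbp-high and 5.35, 6.89 and 8.34 CPM in Dbp-low libraries (1.52, SE 0.11; edgeR adjusted p 8.29e-07). Usp2, a deubiquitinase, had 94.9, 103 and 123 CPM against 31.7, 34.2 and 48.3 CPM (1.51; edgeR adjusted p 1.47e-06). Klf15, a transcription factor of amino acid and glucose metabolism with an E-box printed above, had medians of 15.3 and 5.81 CPM (1.48; edgeR adjusted p 0.000189). All 3 were higher in every Dbp-high library. Tspan4, with medians of only 1.42 and 0.564 CPM and overlapping groups, was called at 1.15 (edgeR adjusted p 0.0388), a call lost in 14 of 27 other settings.

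The remaining called outputs, named beyond the rule and after their values were seen, were Ppara, Coq10b, Slc5a6, Por, Klf9 and Noct among the higher genes and Leo1 as the lower one. Ppara, the nuclear receptor of fatty acid oxidation, differed by 1.14, and Por, which passes electrons to cytochromes P450, by 1.01. Coq10b, whose D-box and E-box are printed above, differed by 1.11 (mean 35.4 CPM ± 4.64 SD in Dbp-high, 17.1 ± 1.77 SD in Dbp-low, n = 6 each). Noct, a circadian phosphatase gene, differed by 0.59 and Leo1 by -0.65. Nampt, the rate-limiting enzyme of NAD salvage, differed by 0.48 and stayed under the fold limit.

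Digestion and uptake of sugars and peptides was the list with the next largest share of calls. Of 15 genes tested, 6 were called higher and none lower, against 1.95% and 1.4% of all genes, and the median difference was 0.45. Slc2a5, the fructose transporter, had 228, 273 and 291 CPM in Dbp-high and 86.1, 93.5 and 145 CPM in Dbp-low libraries, 2.52-fold higher (edgeR adjusted p 6.71e-07). Slc2a2, the basolateral hexose transporter, had 828, 896 and 1042 CPM against 335, 407 and 536 CPM, 2.20-fold higher (edgeR adjusted p 2.08e-05). Slc5a1 (ENSMUSG00000011034, chromosome 5, 33104219 to 33162870), the sodium glucose cotransporter with an E-box printed above, was among the abundant transcripts, with 5353, 5818 and 7030 CPM against 2532, 3542 and 3993 CPM. Its difference was 0.87 (SE 0.11; edgeR adjusted p 0.000150). Slc15a1, the oligopeptide transporter PEPT1, was 1.67-fold higher (edgeR adjusted p 9.05e-05). The brush border disaccharidases Mgam and Sis were the other called members, with differences of 0.71 and 0.68.

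All 4 transporters were higher in every Dbp-high library, and the Dbp-low library nearest to the Dbp-high values for Slc2a5, Slc2a2 and Slc15a1 was replicate 3 of 30 µg/kg. Summed over the list, the level was 47584 to 60378 CPM in Dbp-high and 30325 to 37778 CPM in Dbp-low libraries. The enterocyte marker sum given above was also higher in every Dbp-high library, but the lists share Anpep, an aminopeptidase with a mean of 13340 against 9686 CPM. Without Anpep, the sum of the other 10 markers was 18142 to 24564 CPM against 17198 to 19471 CPM, so the groups overlapped, while the other 14 uptake genes had 34356 to 45646 CPM against 21466 to 28414 CPM. None of the 11 markers was called by edgeR, DESeq2 or limma-voom (7 had an unadjusted p under 0.05 in edgeR). Fabp2 (0.43), Anpep (0.43) and Cdx2 (-0.30) had an edgeR adjusted p of 0.000868, 0.00307 and 0.0188 and stayed under the fold limit. The median difference of the 11 markers was 0.15, and their part in the transporter differences was not tested.

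Ion and water transport genes were called in both directions. Of 13 genes tested, 3 were called higher and 2 lower, against 1.95% and 1.4% of all genes, with a median of 0.10. Atp1b1, a beta subunit of the sodium pump, had 2410 CPM ± 220 (SD, n = 6) in Dbp-high and 1415 ± 138 CPM (SD, n = 6) in Dbp-low libraries (0.78, SE 0.09; edgeR adjusted p 5.11e-05); it was named after its value was seen. Slc13a1, a sulphate transporter, differed by 1.36 (edgeR adjusted p 1.16e-06), with groups that overlapped across doses. Slc9a3, the apical sodium proton exchanger NHE3, had 125, 140 and 162 CPM against 267, 362 and 459 CPM, 2.45-fold lower (edgeR adjusted p 2.82e-06). Slc34a2, described above, was the other lower gene. Thus the sugar cotransporter was higher, and the apical phosphate and sodium proton carriers lower, in the same libraries.

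**Figure D4:**
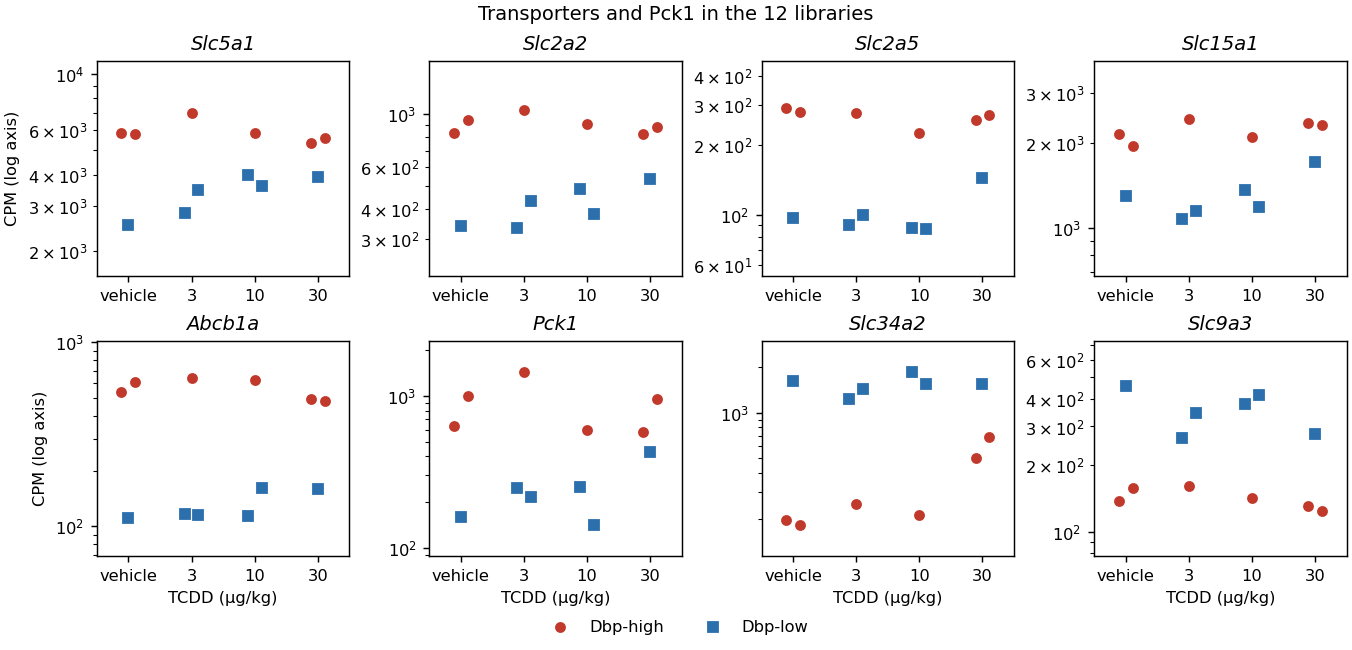
CPM (log axis) of 7 transporter genes and Pck1 in each library by TCDD dose in µg/kg, with Dbp-high libraries as red circles and Dbp-low libraries as blue squares. Slc5a1, Slc2a2, Slc2a5, Slc15a1, Abcb1a and Pck1 are higher in all 6 Dbp-high libraries, and Slc34a2 and Slc9a3 are lower in all 6.

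Drug efflux and drug metabolism genes numbered 18 tested, 4 called higher and 2 lower, against 1.95% and 1.4% of all genes, with a median of 0.14. Besides Abcb1a, the bile pigment and drug conjugate pump Abcc2 had 528, 895 and 1002 CPM against 339, 378 and 412 CPM (1.11; edgeR adjusted p 2.22e-05). Its lowest Dbp-high values, 528 and 600 CPM, were those of 30 µg/kg. Nr1i3, the xenobiotic receptor CAR, was 1.59-fold higher and Gsta1, a glutathione transferase, 1.63-fold higher (edgeR adjusted p 0.000104 and 0.00577). The lower genes, Abcg2 and Cyp2c66, each differed by -0.65.

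The lists of fat and cholesterol genes held 1 call each, of 21 and 14 genes tested, against 3.36% of all genes, so their shares are not a result about the lists. Among genes of fat absorption and oxidation, Dgat2, which makes triglycerides, was called, with 396, 450 and 541 CPM against 144, 182 and 202 CPM (1.36, SE 0.10; edgeR adjusted p 1.33e-06). Of the cholesterol synthesis genes, Msmo1 was called (0.92; edgeR adjusted p 1.46e-05). The medians of these lists were 0.07 and 0.13. In the fat list, 14 of 21 differences were positive. Acsl5 (0.57), Creb3l3 (0.54), Fabp2 (0.43) and Mogat2 (0.21) stayed under the fold limit with an edgeR adjusted p of 3.59e-05, 0.000226, 0.000868 and 0.0435. Of 6 bile acid genes, Slc10a2, the apical bile acid transporter, was called higher and Slc51b, a subunit of the basolateral exporter, lower. Slc51b differed by -0.90 (edgeR adjusted p 1.47e-05). Slc10a2 had 0.867 to 16.4 CPM against 0.451 to 9.10 CPM (1.07; edgeR adjusted p 0.0231), its highest values were those of 3 µg/kg, and its call was lost in 9 of 27 other settings.

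Stress-related lists were examined because body temperature and corticosteroids are known to vary over the day. Their calls stand beside 1.95% of all genes called higher and 1.4% called lower, and 1 or 2 calls are not a result about a list. Neither the 14 heat shock genes nor the 2 cold-inducible genes held a call by edgeR, DESeq2 or limma-voom, and 5 and 0 of them had an unadjusted p under 0.05 in edgeR. The median of the heat shock list was -0.03, and Hspa8, chosen after its value was seen, had the largest difference at 0.46. Hspa8 and Dnaja1 (0.20) had an edgeR adjusted p of 0.0013 and 0.0466 and stayed under the fold limit. Of 16 genes of the unfolded protein response, Herpud1 (1.18; edgeR adjusted p 0.000150) and Trib3 (1.11; edgeR adjusted p 4.41e-06) were called higher, and the list median was 0.00. Herpud1 overlapped through replicate 3 of 30 µg/kg, at 203 CPM in the Dbp-low group. Of 11 glucocorticoid-induced genes, Fkbp5, a chaperone partner of the glucocorticoid receptor, had 94.0, 134 and 240 CPM against 28.2, 47.8 and 120 CPM (1.32, SE 0.21; edgeR adjusted p 0.000761). Klf9 was the other (0.82; edgeR adjusted p 7.71e-06), and the list median was 0.20. Of 12 immediate early genes, Egr1 was called lower, at -0.77 (edgeR adjusted p 0.00389).

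Inducible epithelial defence genes were the list with the most falls. Of 17 tested, 4 were called lower and none higher, against 1.4% and 1.95% of all genes, with a median of -0.07. Duoxa2, the maturation factor of dual oxidase, had 2.66, 7.21 and 10.6 CPM against 12.5, 18.5 and 31.3 CPM (-1.45, SE 0.30; edgeR adjusted p 0.00547). Nos2, the inducible nitric oxide synthase, had 125, 147 and 173 CPM against 128, 324 and 672 CPM (-1.33; edgeR adjusted p 0.00440), so the groups overlapped, and inside 3 µg/kg the difference was only -0.09. Duox2 differed by -0.82 and Reg3a, an antimicrobial lectin, by -0.68 (edgeR adjusted p 0.0206 and 0.00177). The call of Duox2 was lost in 5 of 28 other settings. Of 12 interferon-stimulated genes, Zbp1, a nucleic acid sensor, was called lower at -1.04 (edgeR adjusted p 0.00135). That single call is not a result about the interferon list. None of 7 MHC class II genes was called by edgeR, DESeq2 or limma-voom, and 3 had an unadjusted p under 0.05 in edgeR. H2-DMa (-0.36) and H2-DMb1 (-0.34) had an edgeR adjusted p of 0.00738 and 0.0174 and stayed under the fold limit.

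Genes of position along the villus, cell division and cell type were examined next. Their calls stand beside 1.95% of all genes called higher and 1.4% called lower, and 1 or 2 calls are not a result about a list. Of 13 villus tip genes, Pmp22 (1.19; edgeR adjusted p 9.94e-06) and Nt5e (0.85; edgeR adjusted p 0.00847) were called higher. The median of the villus tip list was 0.15, and 11 of the 13 had a positive difference. The 9 villus bottom genes and 17 cell division genes held no call by edgeR, DESeq2 or limma-voom, with 1 gene each at an unadjusted p under 0.05 in edgeR. Plac8 of the villus bottom list (0.45) had an edgeR adjusted p of 0.000489 and stayed under the fold limit. Of 6 tuft cell genes, the channel gene Trpm5 was called lower at -0.69, while 4 had a positive difference and the median was 0.09. Of 7 stem cell genes, the Wnt target Axin2 was called lower at -0.74, while 3 had a positive difference and the median was -0.20. In all, 21 of the lists examined, with 153 genes tested, held no call. Of these genes, 30 had an unadjusted p under 0.05 in edgeR, against 3700 of all 15823 genes tested. DESeq2 called 1 of the 153 and limma-voom 0.

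Smooth muscle markers had a negative dose-adjusted difference for 8 of 8 genes, although the plain group mean was higher in Dbp-high libraries for 2 of them (Cnn1 and Tagln), with a median of -0.59 and a summed level of 305 to 384 CPM against 301 to 556 CPM. B and plasma cell markers had a positive difference for 8 of 8 genes, with a median of 0.70 and 849 to 2399 CPM against 686 to 1553 CPM. Paneth markers had a negative dose-adjusted difference for 8 of 8 genes, the plain mean being higher for 2 of them, with a median of -0.25 and 688 to 2973 CPM against 806 to 3054 CPM. None of these markers was called by edgeR or limma-voom (1, 2 and 1 of them had an unadjusted p under 0.05 in edgeR), DESeq2 called 1 B and plasma cell marker, and the ranges overlapped. With the smooth muscle level as a further covariate 458 genes were called, 413 of them among the 531. The part of the other 2 lists was not tested.

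**Figure D5:**
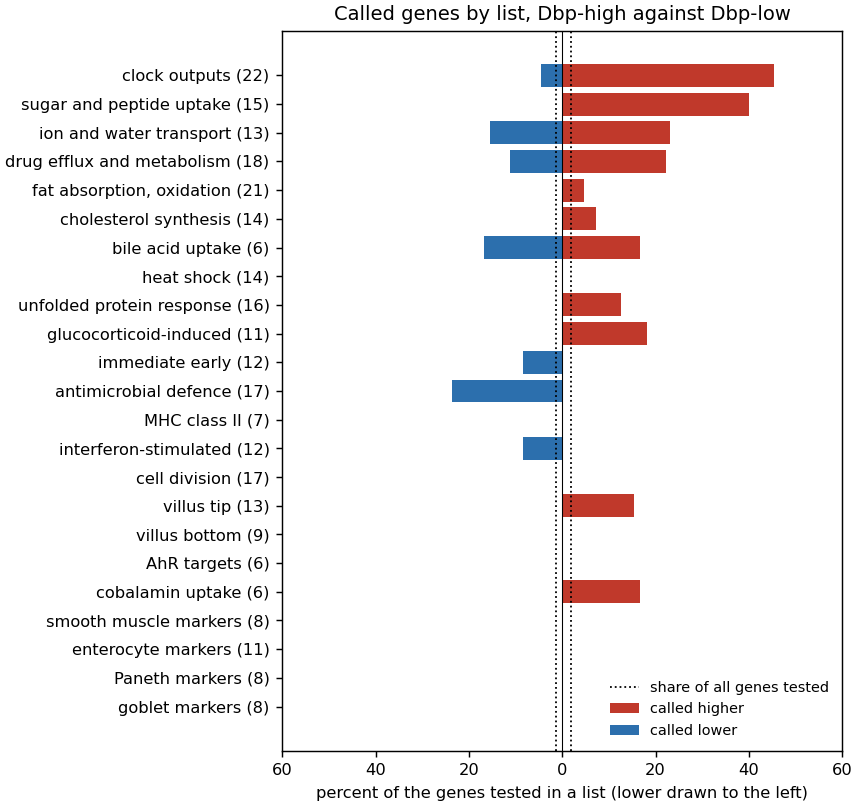
Percent of the genes tested in each list (number in brackets) that were called higher (red, to the right) or lower (blue, to the left) in Dbp-high libraries, with dotted lines at the share of all genes tested. Clock outputs (10 higher, 1 lower of 22) and sugar and peptide uptake (6 of 15) have the longest bars to the right, and antimicrobial defence (4 of 17) the longest to the left.

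The AhR target list and the cobalamin uptake genes were included because of the treatment and aim of the study. None of the 6 AhR targets was called by edgeR, DESeq2 or limma-voom with dose in the model, and 3 had an unadjusted p under 0.05 in edgeR. Of 6 cobalamin genes, Cubn, the receptor of intrinsic factor and cobalamin, was called higher at 1.30 (SE 0.20; edgeR adjusted p 0.000558). Beside the 1.95% of all genes called higher, that single call is not a result about the list. Cubn had 341, 945 and 1720 CPM against 158, 310 and 1108 CPM, with overlap across doses. Its within-dose difference was 0.24 in vehicle and 2.00, 1.80 and 1.2 at 3, 10 and 30 µg/kg.

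Whether the Dbp-high against Dbp-low difference changed along dose was tested as an interaction with the dose rank. Of 15823 genes, 1 had an adjusted p under 0.05 (0.00632%), and 800 had an unadjusted p under 0.05. The gene was Myl9, a myosin light chain of smooth muscle, with a change of 1.35 per dose step on the log2 scale (SE 0.17; edgeR adjusted p 0.0450). Its values in vehicle were 4.30 and 4.36 CPM in the Dbp-high libraries and 18.0 CPM in the Dbp-low library, and at 30 µg/kg they were 8.62 and 11.2 CPM against 2.68 CPM. The same interaction in limma-voom also gave 1 gene, Myl9. With treated against vehicle libraries in place of the dose rank, edgeR gave 0 genes (763 at an unadjusted p under 0.05). Leaving out vehicle replicate 1 raised the count to 18, leaving out replicate 1 of 3 µg/kg raised it to 8 and leaving out replicate 3 of 10 µg/kg raised it to 2. It stayed at 1 without replicate 3 of 3 µg/kg and was 0 without any 1 of the other 8 libraries.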

How the data were processed

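RNA-seq was available for 12 libraries, 3 per dose, with replicate numbers given here in accession order. The deposited values are raw counts per Ensembl gene, 1 library per file and not normalised. The submitters' processing notes name FastQC 0.11.3, Trimmomatic 0.33, TopHat2 2.1.0, SAMtools 1.2.0, HTSeq 0.6.1, DESeq and GRCm38, and the annotation release and strand setting are not given in the sources used here. The rows of HTSeq for unassigned reads were left out, and genes took 35.4 to 39.7% of all entries. Of 46078 genes, 45143 were matched to GENCODE M21, and the others held 0.749% of the counts.

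CPM for the split was computed from plain totals. The model in edgeR 4.0.16 (R 4.3.3) had dose as a factor of 4 levels and the split, filterByExpr (15823 genes left) and TMM factors. Log2 CPM used a prior count of 2. Standard errors are the log2 difference over the square root of the F statistic. In simulated data of this comparison (15823 genes, 200 changed), 74% of 2-fold and 93% of 4-fold changes were recovered, with 5 false calls. DESeq2 1.42.0 and limma 3.58.1 were alternatives. The study's methods give 3 mice per dose, and the labels tie no library to a mouse. The p-values therefore judge association with the split against the variation left between these libraries.

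The libraries and the gene lists were chosen with earlier results of these data known. Named genes were all 23 clock loop genes, called members of 20 lists (up to 4 per list by size) and the 12 largest rises and 12 largest falls. The last were called, protein-coding genes outside the clock loop, with a mean count of at least 50 and libraries separated inside all 4 doses. The clock loop list carries no p-value. Some genes that the rule names are counted in their lists but not reported here.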

Additional observations from a re-analysis of the deposited data

Results flagged for a closer look

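In 150 groups of 6 libraries (75 named genes on each side of the split), 10 had a library set apart by more than Dixon's 95% limit for 6 values (its gap to the nearest library over the range of log2 CPM). Chance flags about 1 in 20 such groups.

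Replicate 2 of 30 µg/kg, the Dbp-high library closest to the 10 CPM limit, was set apart for 3 genes. It had 70.0 CPM of Npas2 (ratio 0.716) and 7.28 CPM of Bok (0.758), the highest of its group, and 39.3 CPM of Duox2 (0.735), the lowest. Replicate 3 of 30 µg/kg was the highest Dbp-low library for Slc2a5 at 145 CPM (0.722), Herpud1 at 203 CPM (0.745) and Bco1 at 18.8 CPM (0.684). Replicate 1 of 3 µg/kg was the highest Dbp-high library for Slc5a1 at 7030 CPM (0.670) and Slc10a2 at 16.4 CPM (0.631). In Dbp-low libraries, vehicle replicate 1 had the highest Fbxl21 at 4.23 CPM (0.693), and replicate 2 of 10 µg/kg the lowest Akr1c14 at 3.48 CPM (0.703).

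Myl9 was the gene for which the Dbp-high against Dbp-low difference changed along dose, by 1.35 per dose step on the log2 scale (edgeR adjusted p 0.0450). Its within-dose differences were -2.03, -1.73, 0.34 and 1.83 from vehicle to 30 µg/kg.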

How the results depend on the processing

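No paired analysis was possible because the labels give no replicate numbers to pair by, and those used here follow accession order; the read index, used once per dose, was fitted as a covariate instead and gave 508 genes (446 kept). The count of 531 genes stayed between 458 (smooth muscle level as a covariate) and 724 (no filter on low counts) in 12 other settings, with 413 to 527 of the 531 genes kept. With no dose covariate it was 496 (450 kept) and with DESeq2 531 (485 kept). Leaving out 1 library gave 425 to 606 genes, 257 to 359 of them higher and 168 to 251 lower. Leaving out a dose gave 410 to 624. The test along dose gave 0 genes for treated against vehicle libraries and 0 to 18 when 1 library was left out; the cause was not tested. No named gene outside the clock loop changed sign. Of 55 named genes outside the clock loop, 9 lost their call in some setting, Tspan4 in 14 of 27, Slc10a2 in 9 of 27 and Duox2 in 5 of 28; Nr1i3 lost it in 2, and Cubn, Duoxa2, Egr1, Gsta1 and Slc13a1 in 1 each. The adjusted p over these settings reached 0.241 for Tspan4, 0.809 for Slc10a2 and 0.152 for Duox2. With 6 libraries a side, simulated 2-fold changes were recovered less often than 4-fold changes, and a gene that was not called is not shown to be level.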

Other observations

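Some members of gene families beyond the lists were called. The families were chosen after their values were seen and are given as counts, without a test, beside the 1.95% of all genes called higher and 1.4% called lower. Of 268 solute carrier genes tested, 26 were called higher and 11 lower in Dbp-high libraries, and most were not called. The higher members included Slc13a2, a dicarboxylate transporter (log2 difference 1.30, mean 721 against 289 CPM), Slc20a1, a phosphate transporter with 2 E-boxes in its window (1.29), Slc47a1, an organic cation exporter (1.05), Slc7a8, an amino acid exchanger (0.90), and Slc46a1, the proton-coupled folate transporter (0.78). The lower members included Slc17a4 (-1.16) and the zinc exporter Slc30a1 (-0.72), so phosphate carriers stood on both sides: Slc20a1 was higher, and Slc34a2 lower.

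All 4 Akr1c genes tested were higher, between 1.09 for Akr1c12 and 2.35 for Akr1c19, and all 4 Sprr genes tested were lower, with -1.44 for Sprr1a. Both families hold near-identical copies, and reads aligned to more than 1 place were left out with the unassigned reads. Their counts are therefore uncertain, and the members are not taken as separate evidence. Of 12 Klf genes, Klf9, Klf11 and Klf15 were higher and the rest were not called. Of 15 interferon-inducible GTPases (Irg and Gbp), 4 were lower and the rest were not called, Igtp at -0.996 being one. Single genes of high significance outside all lists were Cipc, which encodes a protein that binds CLOCK (1.45, 52.7 against 19.5 CPM; edgeR adjusted p 8.46e-08), Gclc, the catalytic subunit of glutathione synthesis (1.26; edgeR adjusted p 3.33e-07), and Vnn1, a pantetheinase (-1.37; edgeR adjusted p 1.06e-05). Among genes of cell death, also picked after their values were seen, Fas, a death receptor, and Bbc3, a BCL-2 family member, were lower at -1.10 and -1.17, as was Bok described above, and Bnip3, which is related to the BCL-2 family, was higher at 1.18.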
